A study of Mus musculus with 6 samples.

Results

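Reelin signalling and the Cajal-Retzius neurons that feed it were followed through 6 genes in the embryonic mouse brain. These were Reln, Vldlr, Lrp8, Dab1, Trp73 and Calb2, found in the gene-level count table by their symbols, 6 of 53801 genes. RNA-seq had been performed on whole brains of C57BL/6 embryos at stage E16.5. The comparison was between 3 embryos without a functional Bahd1 gene (Bahd1-/-, called Bahd1-KO) and 3 wild-type embryos (Bahd1+/+, called Bahd1-WT), and its question was whether brain expression before birth depends on BAHD1, a scaffold of complexes that silence chromatin. Each library was labelled as whole brain and so mixes the cells of all regions that were collected.

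Reelin is a large glycoprotein secreted into the marginal zone of the developing cortex, mainly by Cajal-Retzius cells, and also by granule cells of the cerebellum. It binds the lipoprotein receptors VLDLR and ApoER2 (encoded by Lrp8) on migrating neurons. Both receptors hold a short docking motif in their cytoplasmic tail to which the adapter DAB1 binds. Src family kinases then phosphorylate DAB1, and phosphorylated DAB1 is passed to adapters, small GTPases and a ubiquitin ligase that ends the signal. Mice without reelin, without DAB1 or without both receptors have misplaced layers in the cortex and the cerebellum. Trp73 encodes p73, a transcription factor needed for the survival of Cajal-Retzius cells, and Calb2 encodes calretinin, a calcium-binding protein found in these cells and in many other neurons.

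The docking motif is shown because it is where both receptors bind the adapter DAB1. Each line gives coding sequence 5′ to 3′ (GRCm38, GENCODE), with the 12 bases of the motif in capitals and 24 bases on either side. In Vldlr the motif lies in exon 18 of 19, at chr19:27247940-27247951 on the forward strand, and in Lrp8 in exon 17 of 19, at chr4:107869061-107869072 on the forward strand.
Vldlr: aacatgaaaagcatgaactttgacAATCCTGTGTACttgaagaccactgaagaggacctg
Lrp8: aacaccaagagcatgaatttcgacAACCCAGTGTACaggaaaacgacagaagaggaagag
Of these 60 bases, 45 were identical in both receptors, and 10 of the 12 motif bases were. The receptors nevertheless stayed apart in the counts: of 10346 stretches of 50 bases in the Vldlr transcripts none occurred in another gene, and of 10795 in those of Lrp8, 42 did on the same strand (0.389%).

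The 250 bases before the start of Reln (RefSeq, GRCm38.p6, chr5:22344706-22344955, reverse strand) are shown because Reln encodes the ligand and has a single start in that annotation. Capitals mark the letters GGGCGG, which were searched on both strands.
Reln: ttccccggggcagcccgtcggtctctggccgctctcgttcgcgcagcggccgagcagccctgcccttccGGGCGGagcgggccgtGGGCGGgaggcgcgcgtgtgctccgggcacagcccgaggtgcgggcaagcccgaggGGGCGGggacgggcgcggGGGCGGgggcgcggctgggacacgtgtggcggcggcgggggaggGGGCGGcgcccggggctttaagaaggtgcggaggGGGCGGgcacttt
This stretch held GGGCGG 6 times and had a GC content of 80%, whereas the median over 32851 promoters of the same length was 52.4%. GGGCGG occurred at least once in 32.7% of those promoters. The stretch also held 37 CG dinucleotides, more than 97.8% of the promoters. These letters are a description of the window, and binding to it was not measured here.

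Levels are given as counts per 1e6 counts (CPM), scaled between libraries by the trimmed mean of M-values (TMM). Libraries held 61.7 to 91.8 counts in units of 1e6. Bahd1 itself was read 2 to 10 times in a Bahd1-KO library and 1971 to 3470 times in a Bahd1-WT library, so all genotypes matched their labels. One library stood apart. In Bahd1-KO replicate 3, protein-coding genes, mitochondrial mRNAs included, took 53.5% of the counts, against 97.8 to 98.4% in the other 5 embryos. Of 10 neuron genes, 7 were lower in this library than in all others, against 47.3% of genes with at least 1 CPM in those. The neuronal tubulin gene Tubb3 reached 26.1 CPM against 364 to 1556. The synaptic gene Snap25, named after its values were seen, went the other way, at 910 CPM against 154 to 285. Lung and muscle genes were high. The summed level of 9 lung genes was 2000 CPM, against 14.8 to 28.9, and that of 13 muscle and heart genes 234 CPM, against 4.08 to 15.3; none of either list was at 0. The lung sum of the other 5 embryos was mostly Nkx2-1 (13.3 to 23.5 CPM). Single lung genes were raised in Bahd1-KO replicate 2 as well. Scgb1a1 was at 6.05 CPM there and 6.52 in Bahd1-KO replicate 3, against 0.061 to 0.159 in the remaining embryos. Sftpc was at 2.66 and 828 CPM, against 0 to 0.109. Because Bahd1-KO replicate 3 stood apart most, the genotype comparisons below are given with and without it, and Bahd1-KO replicate 2 stays in both. The part of this library's composition in the results was not tested.

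Reln (ENSMUSG00000042453, chr5:21884454-22344702, reverse strand) was read at 263, 216 and 53.7 CPM in Bahd1-KO replicates 1, 2 and 3, and at 235, 316 and 238 CPM in Bahd1-WT replicates 1, 2 and 3. Replicate 1 of Bahd1-KO lay inside the Bahd1-WT range, replicate 2 just below it and replicate 3 far below it. Between genotypes the log2 fold change came to -0.57 (SE 0.54, edgeR adjusted p 0.726), and without Bahd1-KO replicate 3 to -0.15 (95% interval -0.65 to 0.34, adjusted p 0.981, edgeR). In whole brains, fewer reelin-producing cells and less Reln RNA per cell cannot be told apart, and this holds for every gene below.

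Both receptor genes were expressed in all embryos, and they parted in a single library. Lrp8 (ENSMUSG00000028613, chr4:107802261-107876840, forward strand) reached 386, 305 and 35.1 CPM in Bahd1-KO replicates 1 to 3 and 329, 347 and 277 CPM in Bahd1-WT replicates 1 to 3. Vldlr (ENSMUSG00000024924, chr19:27216484-27254231, forward strand) reached 163, 128 and 166 CPM in Bahd1-KO and 148, 120 and 92.7 CPM in Bahd1-WT, in the same order. Lrp8 in Bahd1-KO replicate 3 was 9.36-fold below the mean of the other 5 embryos, the deepest drop among the 6 genes, whereas Vldlr was at 1.28 times that mean and above each of them. That order for Vldlr depended on the scaling: by total counts the same embryo was at 0.810 times the mean and second lowest, and by upper-quartile factors it was second highest. Lrp8 was lowest there under each of these scalings and under DESeq2 size factors.

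Neither receptor differed between genotypes beyond the spread of the embryos. Vldlr had a log2 fold change of 0.34 (SE 0.26, edgeR adjusted p 0.696), and 0.26 (95% interval -0.31 to 0.82) without Bahd1-KO replicate 3. For Lrp8 it was -0.39 (SE 0.72, edgeR adjusted p 0.859), and it changed sign to 0.10 (95% interval -0.36 to 0.57) without that embryo.

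Dab1 (ENSMUSG00000028519, chr4:103619359-104744844, forward strand), the adapter gene, stood at 318, 237 and 44.4 CPM in Bahd1-KO replicates 1 to 3 and at 278, 281 and 218 CPM in Bahd1-WT replicates 1 to 3. As for Lrp8, the highest level was in Bahd1-KO replicate 1 and the lowest in Bahd1-KO replicate 3, with Bahd1-WT replicate 3 next to lowest. For Dab1 the log2 fold change came to -0.37 (SE 0.62, edgeR adjusted p 0.841) with all embryos and 0.08 (95% interval -0.42 to 0.58) without Bahd1-KO replicate 3.

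The remaining pair of genes is tied to Cajal-Retzius cells rather than to the response to reelin, though Calb2 is found in many other neurons too. Trp73 (ENSMUSG00000029026, chr4:154056253-154140208, reverse strand) was the lowest of the 6, with 401, 579 and 108 counts in Bahd1-KO replicates 1 to 3 and 393, 765 and 822 in Bahd1-WT replicates 1 to 3. These counts gave 6.12, 6.86 and 2.002 CPM in Bahd1-KO and 4.10, 8.68 and 8.14 CPM in Bahd1-WT. The 95% Poisson interval for Bahd1-KO replicate 3, which covers counting error only, ran from 1.64 to 2.42 CPM and that for Bahd1-WT replicate 1 from 3.71 to 4.53, so both lay below the other 4 embryos by more than counting error. Between genotypes Trp73 differed by a log2 fold change of -0.48 (SE 0.54, edgeR adjusted p 0.766), or -0.11 (95% interval -0.94 to 0.71) without Bahd1-KO replicate 3. Among the 6 genes Trp73 had the widest interval in the 5 remaining embryos. Of 5625 stretches of 50 bases in its transcripts, 232 (4.12%) occur on the opposite strand in an antisense gene, which strand-specific counting keeps separate.

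Calb2 (ENSMUSG00000003657, chr8:110137502-110168210, reverse strand) varied least among wild-type embryos, at 59.3, 59.1 and 63.7 CPM in Bahd1-WT replicates 1 to 3 (coefficient of variation 4.29%). The Bahd1-KO embryos were at 48.3, 62.5 and 26.8 CPM in replicates 1 to 3. Replicates 1 and 3 lay below all Bahd1-WT embryos, and replicate 2 lay inside their range. Calb2 had a log2 fold change of -0.40 (SE 0.33, edgeR adjusted p 0.703), and -0.14 (95% interval -0.63 to 0.34) without Bahd1-KO replicate 3.

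**Figure D1:**
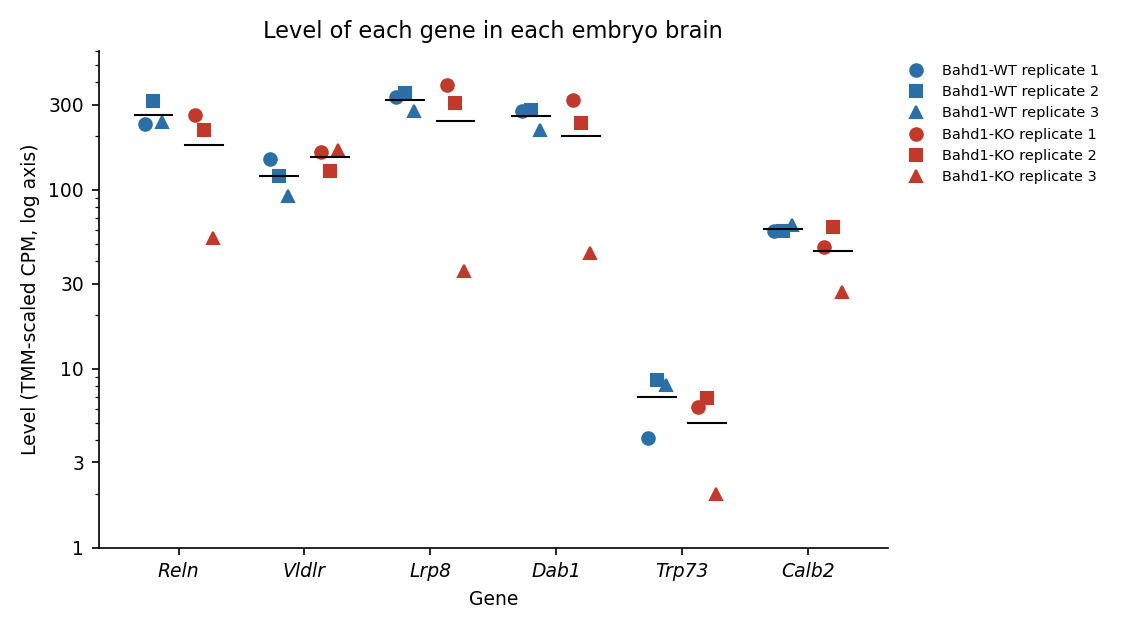
Level of Reln, Vldlr, Lrp8, Dab1, Trp73 and Calb2 in TMM-scaled CPM on a log axis; each point is 1 embryo, blue for Bahd1-WT and red for Bahd1-KO, and black lines are means over 3 embryos. The red triangle, Bahd1-KO replicate 3, lies below all other embryos for every gene except Vldlr, where it is highest at 166 CPM.

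Thus 0 of the 6 genes reached the adjusted threshold of 0.05 (edgeR), where 1 of 24739 genes tested did (0.00404%), and none had an unadjusted p under 0.05, against 4.67% of all genes. DESeq2 and voom also gave 0 calls among the 6. The log2 fold change was negative for 5 of the 6, against 46.2% of all genes, and the median was -0.40, against 0.06 over all genes tested. For none of them were the genotypes free of overlap, which held for 6.71% of genes. Without Bahd1-KO replicate 3 the 6 genes divided into 3 higher and 3 lower, with 50.8% of all genes lower, a median of -0.02 against -0.01, and again 0 calls (0.0171% of 23334 genes). None had an unadjusted p under 0.05 there (1.48% of genes did), and for none were the genotypes free of overlap (10.7%). The 95% intervals from those 5 embryos were widest for Trp73 (-0.94 to 0.71) and Vldlr (-0.31 to 0.82), and for the other 4 genes they lay between -0.65 and 0.58.

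**Figure D2:**
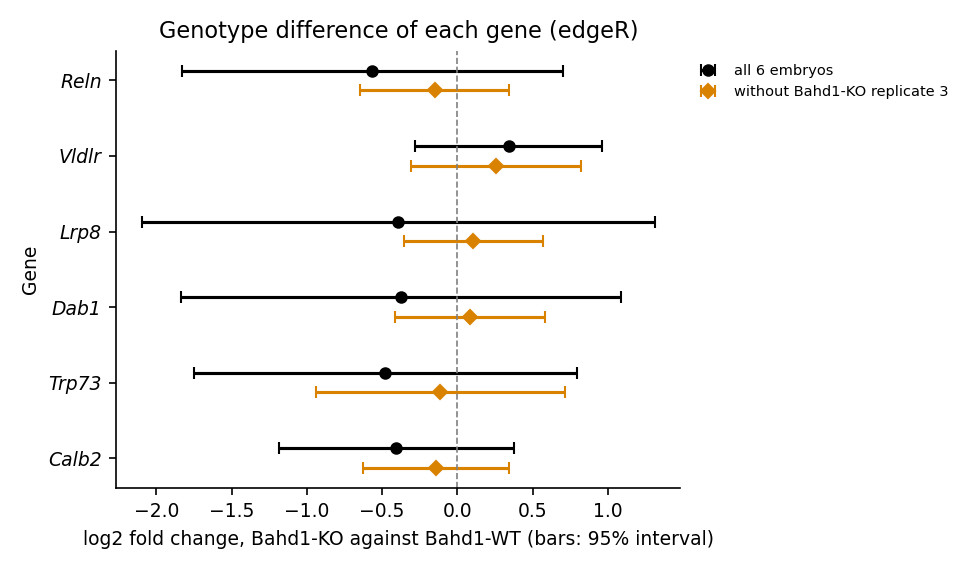
log2 fold change of Bahd1-KO against Bahd1-WT for each gene on the horizontal axis, with 95% intervals from edgeR, for all 6 embryos (black circles) and without Bahd1-KO replicate 3 (orange diamonds). All 12 intervals include 0, and those for Lrp8 narrow from -2.10 to 1.31 down to -0.36 to 0.57.

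To compare genes with each other, counts were divided by the length of all exons of the gene and expressed as reads per kilobase per 1e6 reads (RPKM). In Bahd1-WT embryos Calb2 stood at 34.8 ± 1.49, Dab1 at 32.7 ± 4.51, Lrp8 at 30.2 ± 3.45, Vldlr at 11.96 ± 2.76, Reln at 11.1 ± 1.94 and Trp73 at 1.26 ± 0.45 RPKM (SD, n = 3). The first 3 genes exchanged places between embryos, as did Vldlr and Reln, so neither group has an order beyond its spread. Each of the first 3 lay above Vldlr and Reln, and these above Trp73, in all embryos but Bahd1-KO replicate 3, where Vldlr came first with 16.52 RPKM and Lrp8 had fallen to 3.34. Among 16976 protein-coding genes tested, Calb2 had a higher level per length than 93.9%, Reln than 75.4% and Trp73 than 33.2%. With the longest transcript in place of all exons, Reln stood at 22.5 ± 3.93 and Vldlr at 15.1 ± 3.48 RPKM, and Reln was then above Vldlr in all embryos except Bahd1-KO replicate 3.

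Ratios within an embryo do not depend on library size. The ratio of Vldlr to Lrp8 per kilobase was 0.442, 0.436 and 4.94 in Bahd1-KO replicates 1 to 3 and 0.471, 0.361 and 0.349 in Bahd1-WT replicates 1 to 3. Lrp8 was thus the more abundant receptor transcript in 5 of the 6 embryos, and Vldlr in Bahd1-KO replicate 3. The genotypes differed by 1.33 on the log2 scale (exact two-sided permutation test p = 0.3, 0.6 adjusted over 4 ratios), and by 0.17 without that embryo. With 3 embryos against 3 this test cannot go below 0.1.

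The ratio of Dab1 to the summed receptors was the steadiest of the 4 ratios in wild-type embryos, at 0.764, 0.790 and 0.774 in Bahd1-WT replicates 1 to 3 and at 0.760, 0.718 and 0.283 in Bahd1-KO replicates 1 to 3. The genotypes did not overlap, although Bahd1-KO replicate 1, at 0.760, came close to the lowest Bahd1-WT value, 0.764. The difference was -0.53 on the log2 scale (exact permutation test p = 0.1, the smallest possible, and 0.4 adjusted), and -0.07 without Bahd1-KO replicate 3. Among the genes expressed by Cajal-Retzius cells, Calb2 to Reln ranged from 2.49 to 3.94 in 5 embryos and was 6.79 in Bahd1-KO replicate 3. Trp73 to Reln ranged from 0.0749 to 0.146 in those 5 and was 0.160 in Bahd1-KO replicate 3, with Reln 4.73-fold and Trp73 3.39-fold below the mean of the other embryos. Neither of these ratios differed between genotypes beyond the spread (exact permutation test p = 0.5 and 0.6).

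**Figure D3:**
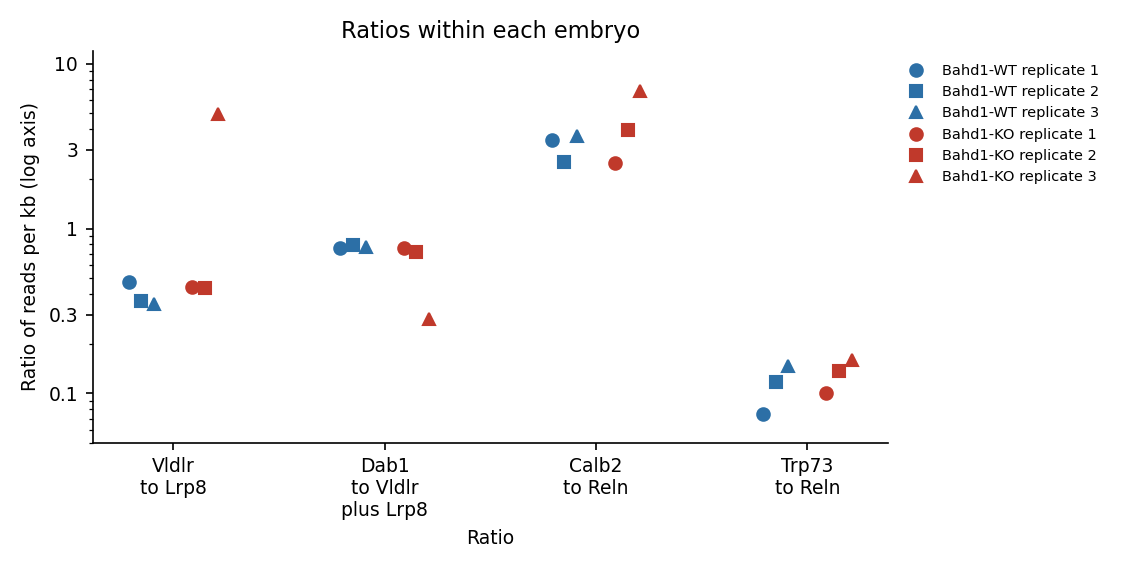
Ratios of reads per kilobase within each embryo on a log axis, for 4 pairs of genes or gene sums, with blue for Bahd1-WT and red for Bahd1-KO. The ratio of Vldlr to Lrp8 is 4.94 in Bahd1-KO replicate 3 and 0.349 to 0.471 in the other embryos, while Dab1 to the summed receptors stays between 0.718 and 0.790 except in that embryo.

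A list of 12 further genes expressed by Cajal-Retzius cells was examined beside Reln, Trp73 and Calb2; most are expressed by other neurons as well. None passed the adjusted threshold in edgeR (lowest adjusted p 0.696). Negative log2 fold changes were found for 11 of 12, against 46.2% of all genes, with a median of -0.54, against 0.06. In edgeR, 1 had an unadjusted p under 0.05 and a higher mean in Bahd1-KO (4.51% of all genes did). That single gene was Ndnf, which encodes a secreted neurotrophic factor. It stood at 59.1, 41.0 and 364 CPM in Bahd1-KO replicates 1 to 3 and at 49.3, 41.2 and 26.5 CPM in Bahd1-WT replicates 1 to 3. Ndnf overlapped between genotypes and was set apart by Bahd1-KO replicate 3, since its log2 fold change was 1.99 (SE 0.82) with all embryos and 0.34 (SE 0.30) without that one.

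The most abundant genes of this list per length were Tbr1, a transcription factor of early-born cortical neurons, and Cxcr4, the chemokine receptor that holds Cajal-Retzius cells at the brain surface. Tbr1 was at 250, 163 and 28.3 CPM in Bahd1-KO replicates 1 to 3 and at 194, 222 and 195.4 CPM in Bahd1-WT replicates 1 to 3. Cxcr4 was at 33.4, 34.6 and 22.3 CPM in Bahd1-KO and 32.7, 35.7 and 38.5 CPM in Bahd1-WT. Without Bahd1-KO replicate 3, the median log2 fold change of the list was -0.11, against -0.01 over all genes. Positive values were held by 4 of its 12 genes and negative ones by 8, where 50.8% of all genes were negative.

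In Bahd1-KO replicate 3, 7 of the 12 genes were at least 4-fold below the mean of the other embryos, as were Reln, Lrp8 and Dab1 among the 6 members. Of all 14368 genes with at least 1 CPM in those embryos, 8.85% were. Lowest was Nhlh1, a helix-loop-helix factor of newborn neurons, with 1 count against 4.30 to 10.3 CPM in the others (named after its values were seen). Cxcr4, at 0.638 times the mean, was the least reduced of the 11 that were lowest in this embryo, as 47.3% of genes with at least 1 CPM were. The 4-fold cut was met by 9 of 9 telencephalon genes and 6 of 10 neuron genes. Low levels in this library were thus shared by other lists of brain genes, though not by all of their genes: Snap25 was at 4.34 times the mean. Of 10 progenitor and radial glia genes, 5 were below and 4 above all other embryos, against 47.3% and 28.7% of genes with at least 1 CPM.

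**Figure D4:**
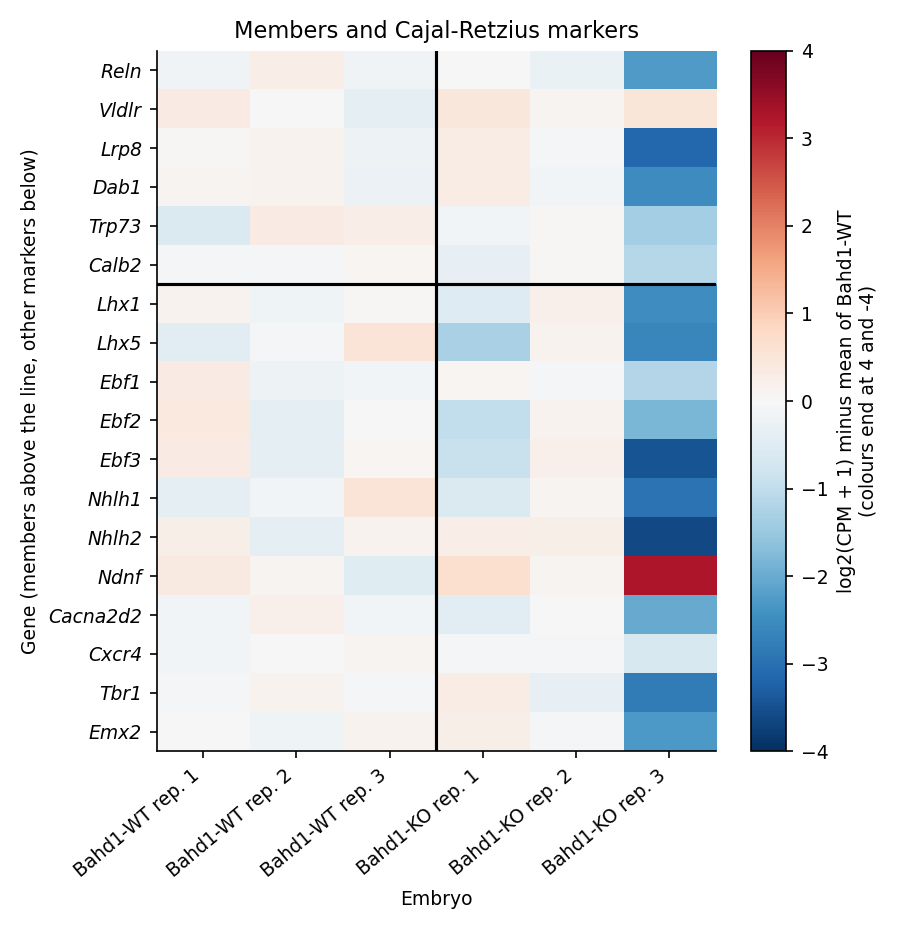
Level of the 6 members and of 12 further Cajal-Retzius markers in each embryo, as log2(CPM + 1) minus the mean of the Bahd1-WT embryos, from blue (lower) to red (higher). The column of Bahd1-KO replicate 3 is blue for all genes but Vldlr and Ndnf, and the other 5 columns are pale, with the darkest of their cells in Bahd1-KO replicate 1.

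Bahd1-KO replicate 1 was low in another set of genes. Of 13 genes of cerebellum and hindbrain, 9 were lower in it than in the other embryos apart from Bahd1-KO replicate 3, and 4 had no count at all (Atoh1, Hoxa2, Hoxa3 and Hoxb3, chosen after their values were seen), which allows at most 0.0458 CPM. Of the 7 list genes with a mean of at least 1 CPM outside Bahd1-KO replicate 3, 5 were lower in it, against 37.4% of all such genes. Atoh1, the factor that specifies cerebellar granule cells, was at 0.812 to 1.73 CPM in the other 4. The 3 Hox genes were lowest of those 4 in Bahd1-WT replicate 2, with Hoxa2 at 0.159, Hoxa3 at 0.0113 and Hoxb3 at 0.113 CPM. Low Hox levels were thus not particular to Bahd1-KO replicate 1. Reln, which granule cells also express, was not low in Bahd1-KO replicate 1, where it ranked second of the 6 embryos. Calb2 was the lowest of the 5 embryos there, and so were 6 of the 12 Cajal-Retzius markers, against 37.4% of genes with at least 1 CPM, while 4 of the 12 were the highest. Lhx5, named after its values were seen, was at 2.41 CPM against 5.14 to 10.8 in the other 4, whereas Tbr1 was at 250 CPM against 163 to 222. Which brain regions each sample held is not given in the sources used here.

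Downstream of the receptors, 33 genes of the reelin pathway were followed, from the proteases that cleave reelin to the machinery that degrades DAB1. All 33 were tested, 0 passed the adjusted threshold in edgeR, and 0 had an unadjusted p under 0.05. The log2 fold change was positive for 13 and negative for 20 (46.2% of all genes were negative). Its median was -0.18, against 0.06 over all genes. Without Bahd1-KO replicate 3 there were 14 and 19 (50.8% of all genes were negative), with a median of -0.09, against -0.01. The whole list then lay between -0.57 and 0.34. The summed level of the list was 5720 to 5961 CPM in 5 embryos and 4457 CPM in Bahd1-KO replicate 3.

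The most abundant pathway genes per length were Cfl1, which encodes the actin-severing protein cofilin, and Cdk5r1, which encodes the p35 activator of the kinase CDK5. Cfl1 was at 704, 935 and 337 CPM in Bahd1-KO replicates 1 to 3 and at 797, 1036 and 1149 CPM in Bahd1-WT replicates 1 to 3. Cdk5r1 was at 323, 338 and 35.4 CPM in Bahd1-KO and at 334, 354 and 360 CPM in Bahd1-WT. Cdk5r1 was even across 5 embryos and 9.67-fold below their mean in Bahd1-KO replicate 3, close to the 9.36-fold of Lrp8.

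The other pathway genes named here were picked after their values were seen. Among the kinases of DAB1, Fyn was at 227 to 246 CPM in 5 embryos and 62.2 in Bahd1-KO replicate 3, whereas Yes1 was at 37.9 to 71.8 and 143. Of the adapters that bind phosphorylated DAB1, Crk varied little, from 164 to 230 CPM in 5 embryos with 194 in Bahd1-KO replicate 3. The ubiquitin ligase genes Cul5 and Rnf7, which act on DAB1, were in that embryo at 0.937 and 0.914 times the mean of the others. Thbs1, which encodes another ligand of both receptors, was at 26.2 to 37.1 CPM in 5 embryos and 202 in Bahd1-KO replicate 3, and the integrin gene Itgb1 at 192 to 290 and 1042. Pathway genes thus did not follow 1 direction in this library: 19 were below and 8 above all other embryos with TMM scaling, where 47.3% and 28.7% of genes with at least 1 CPM were.

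Relatives of the members gave no call either. Of 8 further genes of the lipoprotein receptor family, 0 passed. Their log2 fold changes were positive for 5 and negative for 3 (median 0.27) with all embryos, and positive for 1 and negative for 7 (median -0.25) without Bahd1-KO replicate 3. Of all genes, 46.2% and 50.8% were negative, with medians of 0.06 and -0.01, in the same order. With all embryos, 6 of the 8 were highest in Bahd1-KO replicate 3 with TMM scaling, where 28.7% of genes with at least 1 CPM were. Vldlr was highest there with this scaling but not by total counts, and Lrp8 was lowest. Lrp1, an endocytic receptor, was at 91.6, 236 and 99.3 CPM in Bahd1-KO replicates 1 to 3 and 158, 400 and 286 CPM in Bahd1-WT replicates 1 to 3. Lrp6, the Wnt co-receptor, was at 145, 107 and 241 CPM in Bahd1-KO and 126, 120 and 108 CPM in Bahd1-WT.

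Of 6 genes of the p53 family and targets of p73, Mcidas, a regulator of multiciliated cells, had an unadjusted p of 0.0483 (adjusted p 0.696, edgeR). It was at 0.412, 0.509 and 5.23 CPM in Bahd1-KO and 0.439, 0.386 and 0.317 CPM in Bahd1-WT, and its log2 fold change was 2.42 with all embryos and 0.27 without Bahd1-KO replicate 3. The median of the 6 genes was -0.02 with all embryos and 0.02 without that one. Trp53 and Mdm2 ranged from 25.8 to 54.3 CPM and from 45.4 to 66.2 CPM over all embryos. Among 3 relatives of calretinin, calbindin (Calb1) was at 34.3 to 67.3 CPM in 5 embryos and 97.0 in Bahd1-KO replicate 3, and parvalbumin (Pvalb) at 0.214 to 2.41 and 27.9. The remaining relative, secretagogin (Scgn, named after its values were seen), was at 0.817 to 1.66 CPM in 5 embryos and 0.482 in that embryo, lowest there as Calb2 was. The relatives had, without Bahd1-KO replicate 3, log2 fold changes of 0.15 (Calb1), -1.19 (Pvalb) and -0.02 (Scgn), none with an adjusted p below 0.981 in edgeR.

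**Figure D5:**
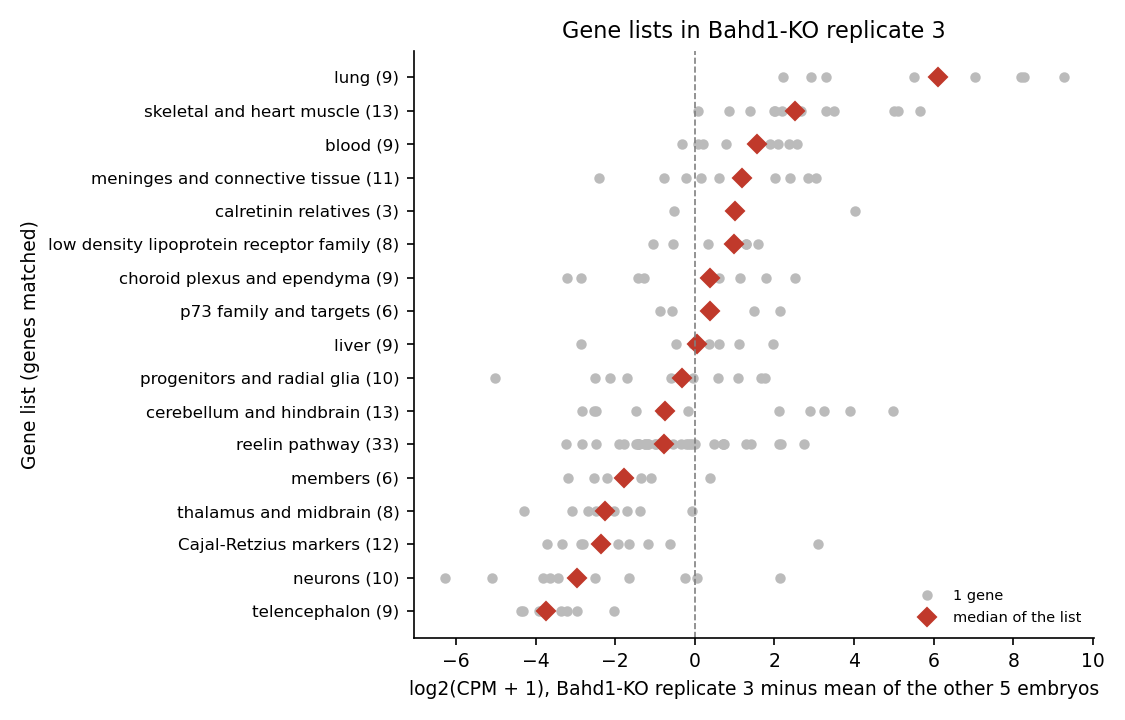
For each gene list, the difference of Bahd1-KO replicate 3 from the mean of the other 5 embryos in log2(CPM + 1), with grey points for genes and red diamonds for list medians. The members lie at a median of -1.77, between the reelin pathway at -0.76 and the Cajal-Retzius markers at -2.35, while telencephalon genes lie at -3.74 and lung genes at 6.10. Over all genes with at least 1 CPM in the other 5 embryos the median is -0.27.

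For the members, genes with the most similar levels over the 6 embryos were found by Pearson correlation of log2 CPM among 13766 genes, as a description. Reln was close to Dpy19l3 (r = 0.9985). Lrp8 was closest to Gm9936 and Gpr173, Dab1 to Gm9936 and Lpar2, Calb2 to Spsb4 and Sox14, and Trp73 to Leng8 and Ryr1, with r between 0.992 and 0.9994. An r above 0.9 was common, since 10.9 to 17.4% of genes had one with these 5 members over the 6 embryos. For Vldlr, 2.52% of genes exceeded 0.9, and the closest were Glce (0.9984) and Chrdl1 (0.9932). Without Bahd1-KO replicate 3, r was 0.964 for Reln with Dpy19l3, 0.954 for Lrp8 with Gpr173, 0.996 for Calb2 with Spsb4 and 0.999 for Vldlr with Glce. These embryos had also served to pick the pairs, so a high r in them is partly built in. Among the members, r turned negative without Bahd1-KO replicate 3 for Calb2 with Lrp8 (0.92 to -0.90), Dab1 (0.89 to -0.88) and Reln (0.91 to -0.34). It did so too for Trp73 with Lrp8 (0.86 to -0.24) and Dab1 (0.83 to -0.37). For Vldlr, r turned positive with Lrp8 (-0.39 to 0.83), Dab1 (-0.34 to 0.85) and Reln (-0.47 to 0.04). For Reln with Lrp8, r fell from 0.99 to 0.55, and for Lrp8 with Dab1 it was 0.98 without that embryo.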

How the data were processed

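Poly(A) RNA from whole brains of 6 embryos had been sequenced, and groups came from the sample titles. Per the study's methods and the submitters' processing notes, the authors prepared stranded libraries and sequenced single-end reads in repeated runs. A paired-end run is also named in the methods. The reads were trimmed with cutadapt 1.11 and aligned to GRCm38 with STAR 2.5.0a, and TopHat2 is also named. Raw read counts per gene from featureCounts 1.4.6-p3 were deposited. Replicates were not pooled. No filter or normalization had been applied.

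The 24739 genes whose counts summed to 10 or more were tested with edgeR 4.0.16 (R 4.3.3), quasi-likelihood test, TMM factors, genotype as the single term, two-sided, with Benjamini-Hochberg adjustment over all genes at 0.05. DESeq2 1.42.0 and limma 3.58.1 (voom) were alternatives, as were other filters, scalings, a replicate block, a GC correction and each embryo left out. Scripts were tested on simulated data. CPM and RPKM were computed from the counts. Gene models came from GENCODE M21. Ratios were tested by exact permutation over 20 assignments.

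The members and gene lists were chosen with earlier results of these data known. Genes named were the members, Bahd1, per list up to 4 genes of lowest unadjusted p under 0.05 and the 2 most abundant per length, and per member the 2 most correlated genes; others are marked in the text. Some genes that this rule names are not reported here. For the marker lists of other tissues and cells, values are given by list. Of the list symbols, 2 were not matched.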

Additional observations from a re-analysis of the deposited data

How the results depend on the processing

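None of the 6 members, 33 reelin pathway genes or 12 Cajal-Retzius markers passed the adjusted threshold in any of 18 alternatives, in which the adjusted p of the members ranged from 0.28 to 1. The number of genes called in the whole table moved from 1 to 8 with DESeq2, 6 with voom and embryo quality weights, and 0 to 4 when 1 embryo was left out. Without Bahd1-KO replicate 3 it was 4 with edgeR, 11 with DESeq2, 16 with the replicate block and 6 with the GC correction, which was chosen after seeing the data.

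Without Bahd1-KO replicate 3, the log2 fold change of Lrp8 changed sign to 0.10 (edgeR), 0.11 (DESeq2), 0.0063 (replicate block) and 0.060 (GC correction), and that of Dab1 to 0.082 (edgeR) and 0.084 (DESeq2). Trp73 changed sign to 0.094 with the replicate block and 0.31 with the GC correction, and Calb2 to 0.032 with the GC correction, again without that embryo. Leaving out 1 embryo at a time gave -0.96 to -0.15 for Reln, 0.17 to 0.48 for Vldlr, -0.90 to 0.10 for Lrp8, -0.88 to 0.082 for Dab1, -0.82 to -0.11 for Trp73 and -0.73 to -0.14 for Calb2. The Calb2 to Reln difference ranged from -0.015 (without Bahd1-KO replicate 3) to 0.71, and the Trp73 to Reln difference from -0.020 (without Bahd1-WT replicate 1) to 0.46. The cause of these changes was not tested. With the replicate number as a block, 0 genes were called, and the members' log2 fold changes ran from -0.90 (Lrp8) to 0.35 (Vldlr). The labels do not say whether same-numbered embryos form pairs. Deviations from the group mean correlated at 0.22, 0.37 and -0.14 for same-numbered embryos, and at -0.52 to 0.39 for the others. These values cannot decide it, because the Bahd1-KO mean includes Bahd1-KO replicate 3. Reln kept its negative and Vldlr its positive sign in all 18 alternatives, without passing the threshold in any. One library set much of the spread: the SE of Lrp8 was 0.72 with all embryos and 0.20 without Bahd1-KO replicate 3, and that of Dab1 0.62 and 0.21. The 95% counting interval reached 19.4% of the value to either side for Trp73 in Bahd1-KO replicate 3, and 10.02% or less for the other levels.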

Other observations

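Other regions and cell types of the brain, read by summed marker levels, gave values that belong to no comparison of genotypes above. Of 8 genes of thalamus and midbrain, the sum was 385 to 518 CPM in 5 embryos and 52.6 CPM in Bahd1-KO replicate 3. Progenitor and radial glia genes, 10 in all, summed to 1534 to 1923 CPM in 5 embryos and to 1853 CPM in that embryo, although single genes moved far apart there: Fabp7, a lipid carrier of radial glia, was at 14.7 CPM against 423 to 575, and Vim, their intermediate filament gene, at 381 against 210 to 337. The 9 genes of choroid plexus and ependyma varied widely among the remaining embryos as well, from 308 to 807 CPM, with 178 CPM in Bahd1-KO replicate 3. Ttr made up most of the choroid plexus sum in those embryos (238 to 695 CPM, against 56.0 in Bahd1-KO replicate 3). Single genes of the list did not all share its direction, since 4 of the 9 were below and 4 above all other embryos in that library. Of genes with at least 1 CPM, 47.3% and 28.7% were. Blood genes, 9 in all, ranged from 133 to 596 CPM in 5 embryos and were at 433 CPM in that one, and 11 genes of meninges and connective tissue ranged from 465 to 625 CPM and were at 2312 CPM. The 9 liver genes, which also include Ttr, again most of the sum, reached 240 to 707 CPM and 67.3 CPM. In none of these lists did a gene pass the adjusted threshold (lowest adjusted p 0.696, edgeR).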
